A study of Homo sapiens with 17 samples.

Results

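RBBP6 and 9 genes for factors of mRNA 3′ end processing were followed across the 6 groups of an acRIP-seq series: CPSF1, CPSF2, CPSF3, CPSF4, FIP1L1, CSTF2, CSTF3, CPSF6 and PCF11. They were chosen by name with earlier results of these data known, and all 10 were among the 23368 genes of the count table.

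Cleavage and polyadenylation give most mRNAs their 3′ end. The cleavage and polyadenylation specificity factor (CPSF) reads the poly(A) signal and cuts the nascent RNA, the cleavage stimulation factor (CSTF) binds GU-rich sequence behind the cut, cleavage factor I binds ahead of it, and cleavage factor II ties the reaction to RNA polymerase II and to the end of transcription. RBBP6, a RING finger protein first known as a partner of p53 and RB1, joins CPSF and activates the cut.

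The RNA was poly(A) RNA of HEK293T, a human embryonic kidney cell line, measured by acRIP-seq. In this assay an antibody against N4-acetylcytidine (ac4C), a base that the acetyltransferase NAT10 writes, pulls down RNA, and the pulled-down RNA is sequenced. For each genotype the series holds input RNA, the RNA bound by the ac4C antibody (IP) and the RNA bound by immunoglobulin G (IgG), a control for RNA that sticks without recognition of ac4C. There were 3 libraries of WT input, 3 of WT IP, 2 of WT IgG, 3 of siTDP43 input, 3 of siTDP43 IP and 3 of siTDP43 IgG. WT cells are labelled wild type, with no control siRNA named for them. siTDP43 cells had received siRNA against TARDBP, the gene of the RNA-binding protein TDP43, so that transfection itself and loss of TDP43 cannot be told apart. Nothing in the labels said whether replicates came from separate cultures, and p-values therefore measure the spread between these libraries, which may be technical.

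The siRNA sequences that the study listed against TDP43 are shown because they define the siTDP43 group, with capitals for the bases that match TARDBP and lower case for the overhang. The first matched hg19 chr1:11073948-11073966 in exon 2 and the second chr1:11078873-11078891 in exon 4, both on the plus strand within the coding sequence.
siTDP43 strand in exon 2: GGCUGGUAGAAGGAAUUCUtt
siTDP43 strand in exon 4: GUCACAGCGACAUAUGAUAtt

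TARDBP was checked first. Its level in CPM (counts scaled to a common library size with TMM factors over the 17 libraries) was 150, 157 and 151 in WT input and 98.6, 102 and 106 in siTDP43 input. The groups did not overlap, and the log2 change was -0.57 ± 0.05 (SE) with an edgeR adjusted p of 6.55e-13. The exact two-sided permutation test gave p = 0.1, the smallest that 3 libraries against 3 allow. NAT10 had 50.6, 52.2 and 51.6 CPM in WT input and 116, 108 and 111 CPM in siTDP43 input. Between these inputs 40.6% of 14036 genes were called lower and 38.6% higher, so a change of this kind sets neither gene apart. The depth of the libraries ranged from 27718784 to 36583436 counts (WT input), from 19615316 to 21066215 (WT IP), from 9022250 to 9466855 (WT IgG), from 24542434 to 31030950 (siTDP43 input), from 8610070 to 15736165 (siTDP43 IP) and from 3013989 to 3436811 (siTDP43 IgG). From 5 to 7 of 7 markers of HEK293 cells (neurofilament, vimentin, keratin and PAX2 genes) were above 1 CPM in each group, with a summed level of 1218 to 1251 CPM in WT input and 593 to 637 CPM in siTDP43 input. In WT input VIM had a mean of 787.5 CPM, while INA (0.20) and PAX2 (0.88) were below 1 CPM. A list of 7 markers of blood, liver, stromal, endothelial and epithelial cells summed to at most 15.6 CPM in any library. PTPRC was at 0 in 5 of the 6 groups. Other markers of this list were not: COL1A1 had a mean of 13.45 CPM in WT IP, DCN 7.49 CPM in WT IgG and EPCAM 6.92 CPM in siTDP43 IP. The part of these differences in these comparisons was not tested.

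Motif letters were searched in the exons of each gene because TDP43 binds UG-rich RNA. The letters TGTGCG, which the study took as a TDP43 motif, were found on the sense strand in the exons of RBBP6 (2 matches), CPSF1 (1), CPSF4 (1) and PCF11 (1), and in none of the other 6 genes. Of 15012 genes tested with exon sequence, 30.8% held this motif, and among genes with 0.8 to 1.2 times the exon length of RBBP6 the share was 43.6%. On the other strand they occurred 2 times in PCF11 and in no other of these genes. The sense matches in RBBP6, CPSF4 and PCF11 are given with the motif in capitals (the one in CPSF1 is not printed here), as the sense strand of hg19, with up to 10 bases on each side within the exon.
RBBP6, chr16:24551360-24551385, 5′ UTR in exon 1 of 18: caggggtttgTGTGCGgtgggggcct
RBBP6, chr16:24582211-24582236, coding sequence in exon 18 of 18: gaggcagtccTGTGCGgaaatctgaa
CPSF4, chr7:99036610-99036635, 5′ UTR in exon 1 of 8: aggaggagtgTGTGCGgcggggccgg
PCF11, chr11:82879470-82879486, coding sequence in exon 8 of 16: gTGTGCGagaagagcag

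The related letters TGTGTG, which can overlap TGTGCG, occurred 13 times in the exons of CPSF6, 4 times each in RBBP6 and CPSF4, 3 times in PCF11, once each in CPSF1, CPSF2 and CSTF3, and in none of CPSF3, CSTF2 and FIP1L1. They were present in 65.8% of the genes tested. The letters TCCCAGCT, the DNA form of the ac4C motif that the study derived in WT cells, were absent from the sense exons of all 10 genes and present in 19.6% of the genes tested. For genes with an exon length like that of a member the share ran from 10.9% for CPSF4 to 34.9% for RBBP6. On the other strand these letters occurred once in CPSF1 and 2 times in CPSF2. A match or its absence describes these letters in these exons only.

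The members also differed in base composition and length. RBBP6 had 7256 exon bases, longer than 91.8% of the genes tested, with 43.5% G and C against a median of 49.5%. CPSF6 had the lowest G and C content, 37.1%, and CPSF1 the highest, 62.3%. The other 8 genes lay between them. CSTF2 has an intronless paralog, CSTF2T. By the study's methods only uniquely mapped reads were counted, so reads that fit both genes equally would be left out. How many were left out was not tested. The exons of CPSF1 overlapped those of ADCK5 by 8 bases and MIR939 by 12 bases, and those of CPSF6 overlapped MIR1279 by 62 bases.

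RBBP6 was high in the WT IP and in no other group. Its libraries had 18.4, 20.5 and 19.5 CPM in WT input, 1004, 1152 and 1159 CPM in WT IP, and 53.0 and 72.0 CPM in WT IgG. In siTDP43 they had 12.3, 12.8 and 10.9 CPM in input, 29.9, 30.6 and 33.4 CPM in IP, and 47.4, 39.6 and 31.3 CPM in IgG. From lowest to highest the groups ran siTDP43 input, WT input, siTDP43 IP, siTDP43 IgG, WT IgG and WT IP. The siTDP43 IP and siTDP43 IgG libraries overlapped, and no other neighbours in this order did. In counts, RBBP6 had 24296 to 28226 in the WT IP libraries, which placed it between rank 99 and rank 105 of all genes there, and 268 to 403 in the siTDP43 IP libraries, where its rank was between 4153 and 4594.

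**Figure D1:**
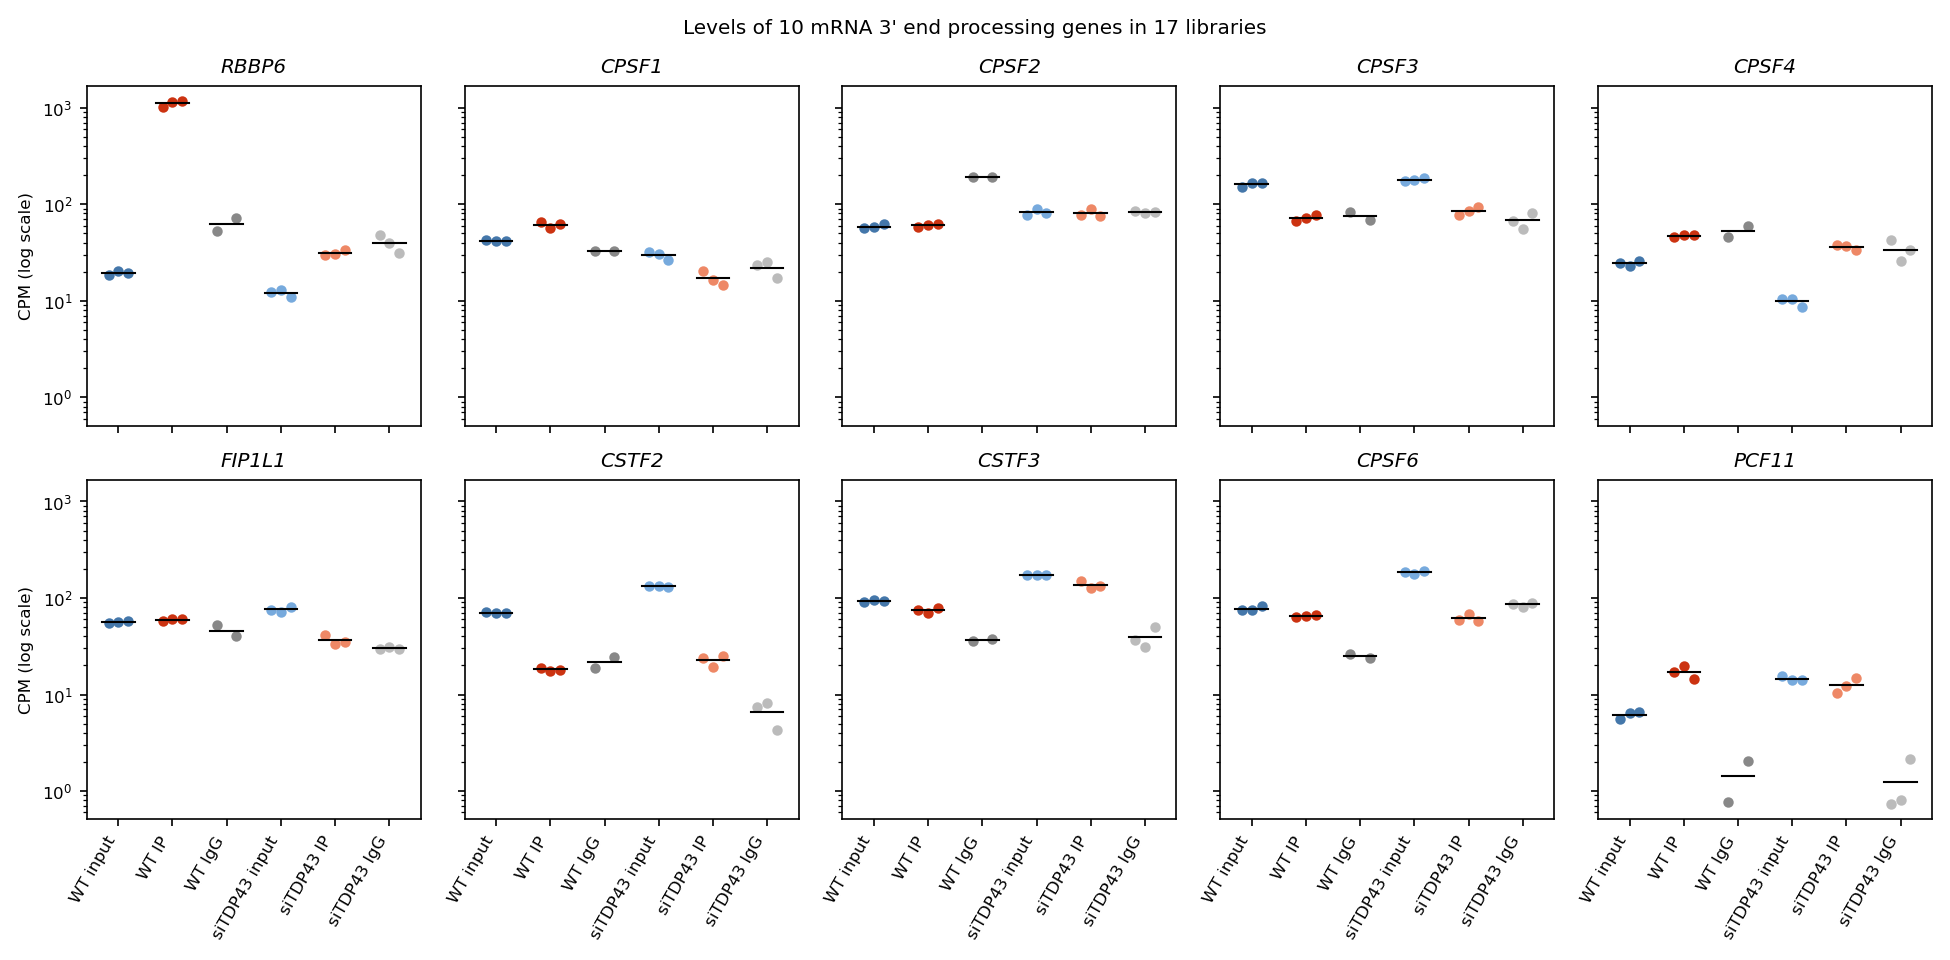
Level in CPM (log scale) of the 10 genes in the 17 libraries. Each point is 1 library and each line a group mean (n = 3, or 2 for WT IgG). RBBP6 stands at 1004 to 1159 CPM in the WT IP and below 73 CPM in the other 14 libraries, and PCF11 is lowest in both IgG groups.

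Levels per length show the order between genes. In WT input the mean level per kilobase of exon was highest for CPSF3, the endonuclease that makes the cut, at 73.8 CPM per kb. CSTF2 followed at 35.0, CSTF3 at 29.5, FIP1L1 at 22.7, CPSF4 at 13.4, CPSF6 at 11.7, CPSF2 at 11.5 and CPSF1 at 9.31 CPM per kb. RBBP6 stood at 2.68 CPM per kb and PCF11 at 1.04. The means of CPSF6 and CPSF2 were closer than their spread. In the WT IP RBBP6 was first of the 10 genes, at 152 CPM per kb (mean, n = 3), with CPSF3 next at 33.1. In the siTDP43 IP RBBP6 was at 4.31 CPM per kb, below 7 of the other 9 genes.

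The first comparison asked how the mRNAs themselves differed in the input after TDP43 knockdown. All 10 genes passed the test (adjusted p under 0.05), 7 higher and 3 lower, in a comparison in which 38.6% of 14036 genes were called higher and 40.6% lower. The median log2 change of the 10 genes was 0.47, against -0.05 for all genes tested. Poly(A) RNA of a whole culture was measured, so that fewer cells expressing a gene and less RNA per cell cannot be told apart.

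CPSF6, the large subunit of cleavage factor I, rose most. It had 74.8, 74.7 and 81.8 CPM in WT input and 186, 176 and 191 CPM in siTDP43 input. Its log2 change was 1.26 ± 0.05 (edgeR adjusted p 6.92e-21). PCF11, the subunit of cleavage factor II that binds the polymerase tail, had 5.52, 6.38 and 6.61 CPM in WT and 15.7, 14.1 and 14.0 CPM in siTDP43. Its log2 change was 1.24 ± 0.12 (edgeR adjusted p 8.79e-11). Neither gene overlapped between the inputs. The same held for every other member, down to CPSF3 with its log2 change of 0.17. Separation of the libraries therefore set no member apart from the others. In this comparison 38.6% of 14036 genes were called higher and 40.6% lower. The share of all genes whose libraries did not overlap was not computed.

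Both CSTF genes rose as well. CSTF2, which carries the RNA-binding domain of the factor, had 72.2, 69.9 and 69.7 CPM in WT and 134, 133 and 129 CPM in siTDP43, a log2 change of 0.91 ± 0.05. CSTF3, the scaffold of the factor, had 91.2, 96.3 and 94.0 CPM in WT and 172, 171 and 173 CPM in siTDP43, a log2 change of 0.88 ± 0.04. The 3 siTDP43 libraries lay above the 3 WT libraries for both genes.

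Within CPSF the genes went in both directions. CPSF4, the zinc finger subunit that contacts the poly(A) signal, fell from 24.6, 23.1 and 25.7 CPM to 10.4, 10.4 and 8.65 CPM, with a log2 change of -1.31 ± 0.10 (edgeR adjusted p 2.92e-13). CPSF1, the large scaffold subunit, had a log2 change of -0.49 ± 0.07. FIP1L1, which links CPSF to poly(A) polymerase, rose by 0.44 ± 0.05 and CPSF2, the partner of CPSF3, rose by 0.50 ± 0.06 on the log2 scale. CPSF3 rose least, by 0.17 ± 0.04 (edgeR adjusted p 0.00133), and this call was lost with total count scaling, where the change was 0.07, in a fit of all 17 libraries, where it was 0.16, and with limma, where it was 0.07. RBBP6 fell, with a log2 change of -0.70 ± 0.10 (edgeR adjusted p 2.05e-07), and its 3 siTDP43 libraries lay below the 3 WT libraries.

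**Figure D2:**
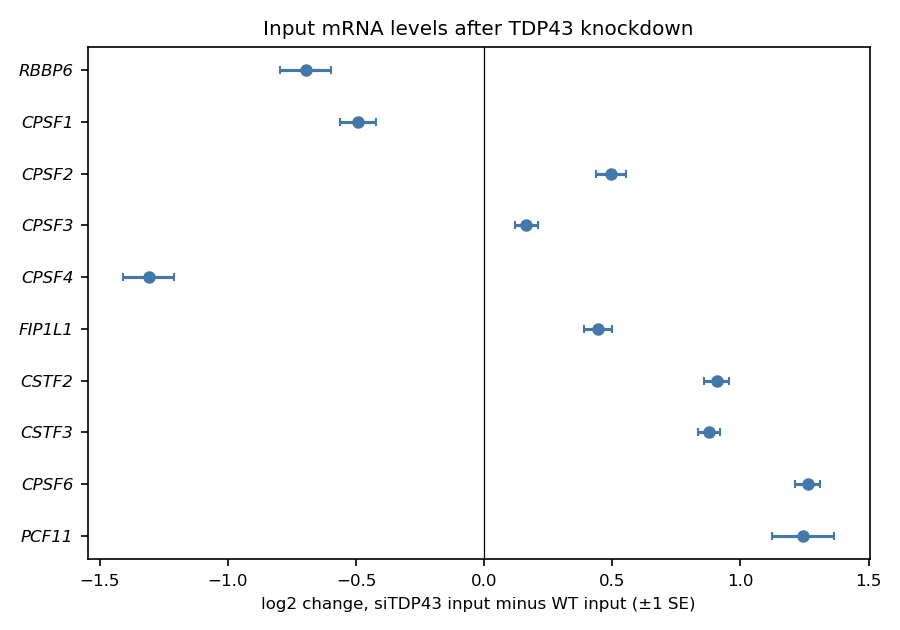
Log2 change of the 10 genes between siTDP43 input and WT input (x axis, positive where siTDP43 is higher), with bars of ±1 SE from edgeR (3 libraries against 3). Filled points passed an adjusted p of 0.05, which all 10 did; CPSF4, RBBP6 and CPSF1 lie below 0 and CPSF6 and PCF11 farthest above it.

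The second comparison asked which of these mRNAs were enriched by the ac4C antibody in WT cells. Within a genotype a gene was called only where its change exceeded 2-fold at an adjusted p under 0.05. Over input, 2 of the 10 genes were called higher, RBBP6 and PCF11, and 2 lower, CSTF2 and CPSF3, with 30.2% and 27.3% of 14751 genes called in these directions. RBBP6 was 56.9-fold higher in the IP than in input, a log2 change of 5.83 ± 0.09 (edgeR adjusted p 3.27e-25), and held rank 182 of the 14751 genes by this change. Its IP libraries lay far above the input libraries given earlier. PCF11 had 17.3, 19.9 and 14.6 CPM in the WT IP, a log2 change over input of 1.49 ± 0.16 (edgeR adjusted p 1.04e-08).

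The genes called lower over input were those of a nuclease and of an RNA-binding subunit. CSTF2 had 18.97, 17.6 and 17.9 CPM in the WT IP, a log2 change of -1.95 ± 0.09 over input. CPSF3 had 67.6, 71.7 and 76.4 CPM there, a log2 change of -1.15 ± 0.07. CPSF4 missed the 2-fold limit at 0.95 ± 0.09 and passed it with total count scaling at 1.06, with a mean of at least 50 counts at 1.02 and with limma at 1.01. The values of the other 5 genes lay between -0.33 (CSTF3) and 0.56 (CPSF1).

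Over IgG, 3 of the 10 genes were called higher in WT, RBBP6, PCF11 and CPSF6, and 1 lower, CPSF2, where 35.2% and 17.8% of 14751 genes were called. RBBP6 was 17.5-fold higher, a log2 change of 4.13 ± 0.10 (edgeR adjusted p 1.83e-20), and held rank 2214 of the 14751 genes by this change. PCF11 had a log2 change of 3.60 ± 0.29 over IgG (edgeR adjusted p 6.95e-11), but its WT IgG libraries held only 8 and 20 counts, and without WT IgG replicate 2 the change was 4.46. CPSF6 had 63.7, 65.3 and 66.8 CPM in the WT IP against 26.0 and 23.9 CPM in WT IgG, a log2 change of 1.37 ± 0.09. CPSF2 had 57.9, 61.2 and 62.3 CPM in the WT IP against 192 and 191 CPM in WT IgG, a log2 change of -1.68 ± 0.07. CSTF3 stood at the 2-fold limit with 0.997 ± 0.084, and was called without WT IP replicate 2 (1.04) or WT IgG replicate 2 (1.05). It was also called with DESeq2 and with its size factors in edgeR (1.02 in each), in a fit of all 17 libraries (1.02), with limma (1.07) and with total count scaling (1.13). CPSF1 was called with total count scaling, at 1.01.

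RBBP6 and PCF11 were thus above both input and IgG in WT, 2 of 10 genes, beside 15.6% of the 14751 genes. The study followed RBBP6 by qPCR after it had sequenced these libraries, and its values here are no independent evidence of its enrichment.

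The IgG pull-down was not uniform across the genes either. In WT, IgG was called higher than input for CPSF2, RBBP6 and CPSF4 and lower for PCF11, CSTF2, CPSF6, CSTF3 and CPSF3, beside 24.4% and 36.6% of 14751 genes. RBBP6 was 3.26-fold higher in IgG than in input, a log2 change of 1.71 ± 0.10 (edgeR adjusted p 8.04e-14). CPSF2 changed by 1.74 ± 0.07 and CPSF4 by 1.14 ± 0.10 on the log2 scale. The calls for CPSF4 and CPSF3 were lost without WT IgG replicate 2, where the changes were 0.92 and -0.95. That for CPSF3 was also lost among genes with a mean of at least 50 counts, at -0.99. PCF11 had a change of -2.11 ± 0.31, and -2.97 without WT IgG replicate 2, and with limma it was -0.76 and under the 2-fold limit.

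In siTDP43 cells CPSF4 and not RBBP6 had the highest value over input. Over input, IP was called higher for CPSF4 and RBBP6 and lower for CSTF2 and CPSF6, beside 26.8% and 25.4% of 12746 genes. With total count scaling these counts over all genes were 2772 higher and 4323 lower in place of 3414 and 3239. CPSF4 had 38.0, 37.0 and 33.8 CPM in the siTDP43 IP, 4.11-fold above input, with a log2 change of 2.04 ± 0.16 (edgeR adjusted p 1.13e-10). RBBP6 was 2.90-fold above input, a log2 change of 1.54 ± 0.15 (edgeR adjusted p 5.87e-09), and fell below the 2-fold limit on the log2(FPKM + 1) scale in limma, at 0.86. CSTF2, with 23.9, 19.4 and 24.9 CPM in the IP, changed by -2.38 ± 0.12, and CPSF6, with 59.2, 68.4 and 57.5 CPM, by -1.42 ± 0.09. CPSF3 and FIP1L1, at -0.93 and -0.91, passed the 2-fold limit with total count scaling, at -1.26 and -1.25, in a fit of all 17 libraries, at -1.08 and -1.06, and with limma, at -1.24 and -1.19. CPSF3 passed it also with DESeq2, at -1.001, and with its size factors in edgeR, at -1.003. PCF11 had a change of -0.08 ± 0.21, and its IP and input libraries overlapped.

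Over IgG, siTDP43 IP was called higher for PCF11, CSTF3 and CSTF2, beside 34.0% of 12746 genes. None of the 10 genes was called lower by edgeR, beside 15% of the genes: 3 had an unadjusted p under 0.05 and 2 an adjusted p under 0.05, all under 2-fold, and DESeq2 and limma called 0 as well. The 2 were CPSF6, at -0.56 ± 0.10, and RBBP6, at -0.41 ± 0.17 (edgeR adjusted p 0.0332), whose IP and IgG libraries overlapped. CSTF3 had 150, 128 and 134 CPM in the IP against 36.7, 30.8 and 49.8 CPM in IgG, a log2 change of 1.73 ± 0.12. CSTF2 had a log2 change of 1.73 ± 0.21 over IgG libraries of 12 to 20 counts. PCF11 had a change of 3.24 ± 0.41 over IgG libraries of 2, 2 and 6 counts, and 3.92 without siTDP43 IgG replicate 3.

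No gene of the 10 was above both input and IgG in siTDP43 by edgeR, by DESeq2 or by limma, beside 10.3% of the 12746 genes. At an unadjusted p under 0.05 in both contrasts the count was 0 with each of the 3 tools as well.

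In siTDP43, IgG was called higher than input for CPSF4 and RBBP6 and lower for CSTF2, PCF11, CSTF3, CPSF3 and FIP1L1, beside 24.7% and 41.0% of 12746 genes. With total count scaling these counts over all genes were 2367 higher and 6420 lower in place of 3145 and 5227. RBBP6 was 3.85-fold higher in IgG than in input, a log2 change of 1.95 ± 0.17 (edgeR adjusted p 5.76e-10). CPSF4 had a log2 change of 2.02 ± 0.18. CSTF2 had one of -4.11 ± 0.18 and PCF11 one of -3.31 ± 0.40, which was -4.01 without siTDP43 IgG replicate 3. FIP1L1 had 29.7, 31.2 and 29.9 CPM in siTDP43 IgG and a change of -1.11 ± 0.13, which fell under the 2-fold limit among genes with a mean of at least 50 counts, at -0.98. CPSF6, at -0.87, was not called, but was called lower with total count scaling (-1.42), in a fit of all 17 libraries (-1.10) and with limma (-1.34).

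**Figure D3:**
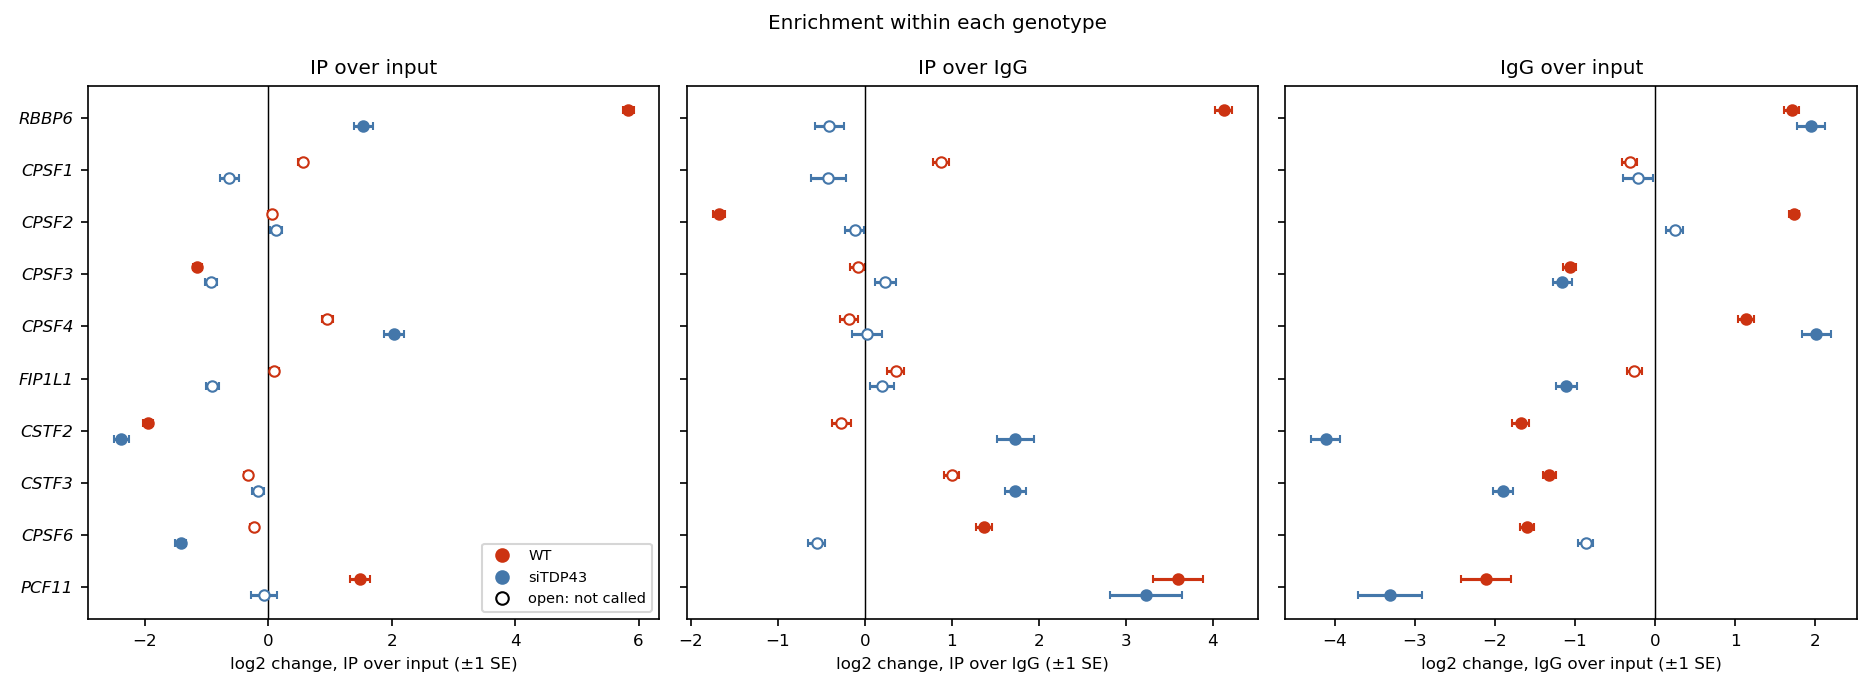
Log2 change of IP over input, IP over IgG and IgG over input for the 10 genes in WT (red) and siTDP43 (blue), with bars of ±1 SE from edgeR. Filled points passed an adjusted p of 0.05 and 2-fold; RBBP6 lies at 5.83 over input and 4.13 over IgG in WT, and at 1.54 and -0.41 in siTDP43, while its IgG over input is 1.71 and 1.95.

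The difference in enrichment between the genotypes was tested as an interaction over all 17 libraries, where an adjusted p under 0.05 was enough for a call. Since batch and genotype cannot be told apart in these labels, it compares the 2 sets of libraries. For IP over input 6 of the 10 genes were lower in siTDP43 than in WT and 1 was higher, beside 36.3% and 31.5% of 15165 genes. The median change of the 10 genes was -0.86, against -0.19 for all genes tested.

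RBBP6 changed most of the 10 genes. Its enrichment over input was 21.8-fold lower in siTDP43 than in WT, a log2 difference of -4.44 ± 0.14 (edgeR adjusted p 8.26e-26), and stayed between -4.51 and -4.40 when any single library was left out. It held rank 1420 from the lowest of the 15165 genes. Over IgG the difference was -4.48 ± 0.18 (edgeR adjusted p 4.90e-22), at rank 1673 from the lowest. For IgG over input it was 0.04 ± 0.17 and did not pass the test (edgeR adjusted p 0.948), with an interval of 1 SE that included 0. The study named RBBP6 as highly acetylated from these WT IP libraries. Its differences over input and over IgG use the same libraries and are therefore no independent evidence. PCF11 had a difference of -1.72 ± 0.27 over input (edgeR adjusted p 5.95e-07). Over IgG its difference was -0.32 ± 0.67 (edgeR adjusted p 0.807), on the few IgG counts given earlier, and ran from -1.17 without WT IgG replicate 2 to 0.38 without siTDP43 IgG replicate 3. It was called lower with limma, at -0.50 (limma adjusted p 0.0233).

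CPSF6, CPSF1 and FIP1L1 had differences over input of -1.34 ± 0.11, -1.33 ± 0.17 and -1.14 ± 0.14. CPSF1 had 65.2, 56.4 and 62.3 CPM in the WT IP and 20.4, 16.2 and 14.6 CPM in the siTDP43 IP, so that these libraries did not overlap. CPSF6 had an IP mean of 65.3 CPM in WT and 61.7 CPM in siTDP43, while its input mean was 77.1 and 184 CPM. CSTF2 had a difference of -0.58 ± 0.15 (edgeR adjusted p 0.00078). CPSF4 was the gene called higher, at 0.94 ± 0.18 (edgeR adjusted p 1.88e-05). Its IP mean was 47.1 CPM in WT and 36.3 CPM in siTDP43, and its input mean was 24.5 and 9.84 CPM. Over IgG the difference of CPSF4 was not called and ran from 0.05 to 0.47 when 1 library was left out. CPSF2, CPSF3 and CSTF3 did not pass the test, at -0.07 ± 0.11, 0.07 ± 0.12 and 0.01 ± 0.12, by edgeR with TMM. CPSF2 passed it with total count scaling, at -0.37, and with limma, at -0.35. CSTF3 passed it with total count scaling, in the other direction, at -0.29.

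For IP over IgG, 3 genes were lower and 4 higher. RBBP6, CPSF6 and CPSF1 were lower in siTDP43 and CSTF2, CPSF2, CSTF3 and CPSF3 higher, beside 25.9% and 34.9% of 15165 genes. CPSF6 had a difference of -1.87 ± 0.14 and CPSF1 one of -1.23 ± 0.22. CSTF2 had one of 2.05 ± 0.25, CPSF2 one of 1.62 ± 0.13 and CSTF3 one of 0.79 ± 0.16. The IgG mean of CPSF6 was 24.9 CPM in WT and 86.1 CPM in siTDP43. CPSF3, at 0.37 ± 0.15 (edgeR adjusted p 0.0317), was no longer called with DESeq2 or with its size factors in edgeR, both at 0.15, or with a mean of at least 50 counts, at 0.31. The call was also lost when WT IP replicate 1 (0.32), WT IgG replicate 1 (0.22), siTDP43 IP replicate 3 (0.30), siTDP43 IgG replicate 1 (0.35) or siTDP43 IgG replicate 2 (0.25) was left out.

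The IgG over input values themselves differed between genotypes for 6 genes, 2 higher and 4 lower in siTDP43, beside 27.0% and 37.4% of 15165 genes. CPSF4 (0.68 ± 0.21) and CPSF6 (0.53 ± 0.14) were the higher ones, and neither was called with total count scaling, at 0.36 and 0.21, or with limma, at 0.24 and 0.08. Without siTDP43 IgG replicate 1 CPSF4 was at 0.47 and not called. CSTF2 (-2.63 ± 0.23), CPSF2 (-1.69 ± 0.13), FIP1L1 (-1.05 ± 0.17) and CSTF3 (-0.78 ± 0.16) were the lower ones. PCF11, at -1.41 ± 0.63 (edgeR adjusted p 0.0504), was just outside the threshold. It was inside it without WT IgG replicate 1 (-1.95) or siTDP43 IgG replicate 3 (-2.10), with total count scaling (-1.73) and with limma (-0.83). It was also inside it without WT input replicate 2 or 3, WT IP replicate 2 or 3, or siTDP43 IP replicate 1 or 3, at -1.46 to -1.405. CPSF3, at -0.29, was not called. It was called lower with total count scaling (-0.62), with limma (-0.61), with a replicate block (-0.35), without WT IgG replicate 2 (-0.42) and without siTDP43 IgG replicate 3 (-0.45). CPSF2 had 192 and 191 CPM in WT IgG and 85.5, 80.5 and 83.6 CPM in siTDP43 IgG, with IP means of 60.5 and 80.7 CPM. The differences of these genes over IgG and over input share libraries, and each is given as its own value.

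**Figure D4:**
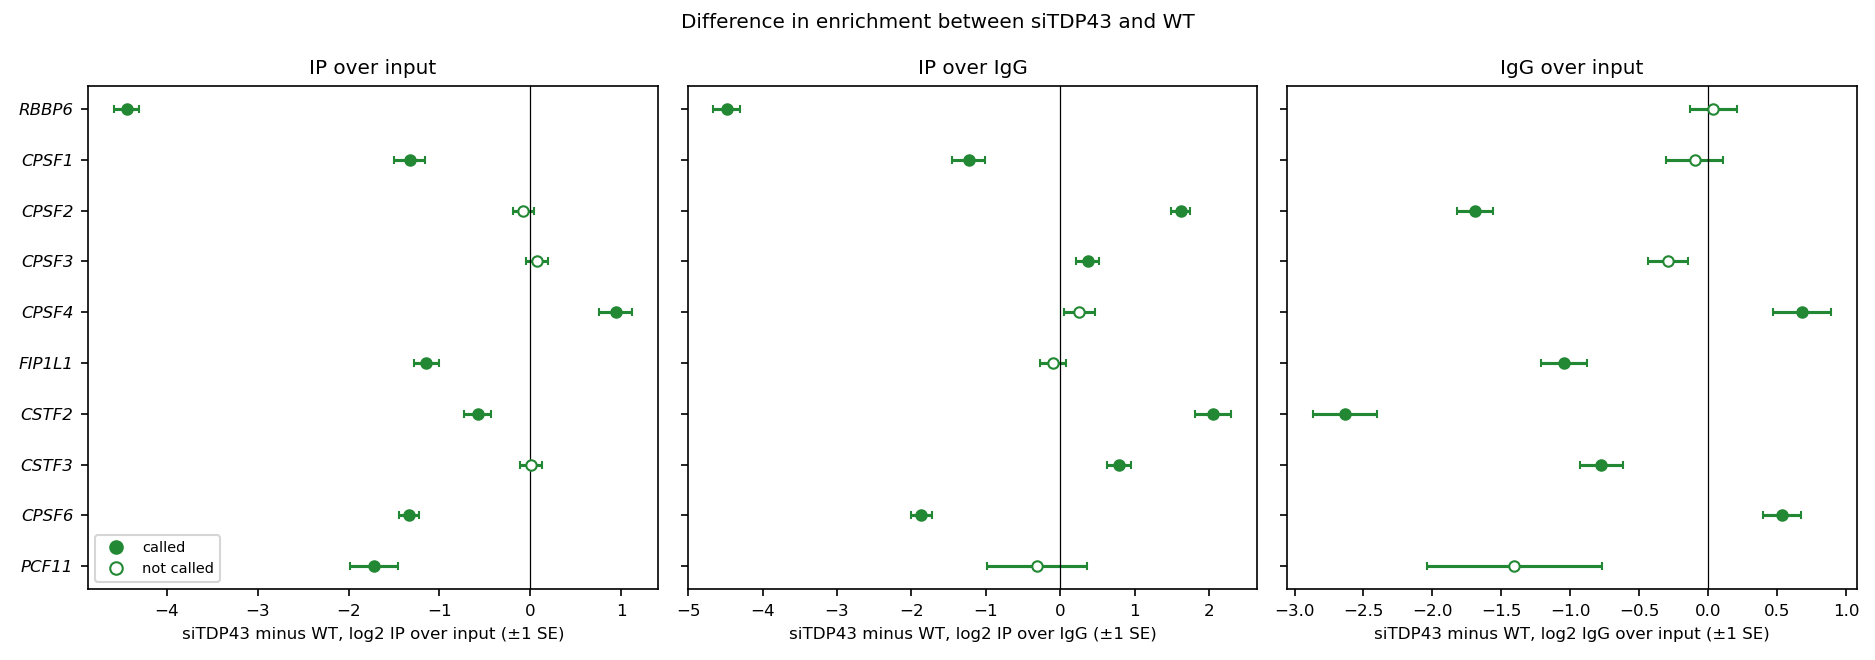
Difference between siTDP43 and WT (log2, negative where siTDP43 is lower) in IP over input, IP over IgG and IgG over input for the 10 genes, with bars of ±1 SE from edgeR over 17 libraries. Filled points passed an adjusted p of 0.05; RBBP6 is lowest over input (-4.44) and over IgG (-4.48) and lies at 0.04 for IgG over input.

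Of the other 9 genes none followed the pattern of RBBP6 closely. Over the 17 libraries, which share groups and depth, their Pearson r with RBBP6 on log2 CPM ran from -0.62 (CPSF3) to 0.66 (CPSF4). Among the 10140 genes with a mean of at least 100 counts the most similar were ATRX (r = 0.996), a chromatin remodeller, BDP1 (r = 0.994), a subunit of the RNA polymerase III initiation factor TFIIIB, and GOLGA2 (r = 0.986), a Golgi matrix protein. ATRX had a mean of 36.9 CPM in WT input, 1890 CPM in WT IP, 117 CPM in WT IgG, 17.1 CPM in siTDP43 input, 47.7 CPM in siTDP43 IP and 66.7 CPM in siTDP43 IgG. In BDP1 the means were 16.2, 645, 43.6, 9.35, 17.8 and 24.4 CPM and in GOLGA2 13.9, 575, 80.2, 10.8, 31.4 and 29.7 CPM in the same order of groups. All 3 had their highest level in the WT IP and a siTDP43 IP level far below it. This follows from their choice by correlation with RBBP6 over the same libraries and is no separate result.

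**Figure D5:**
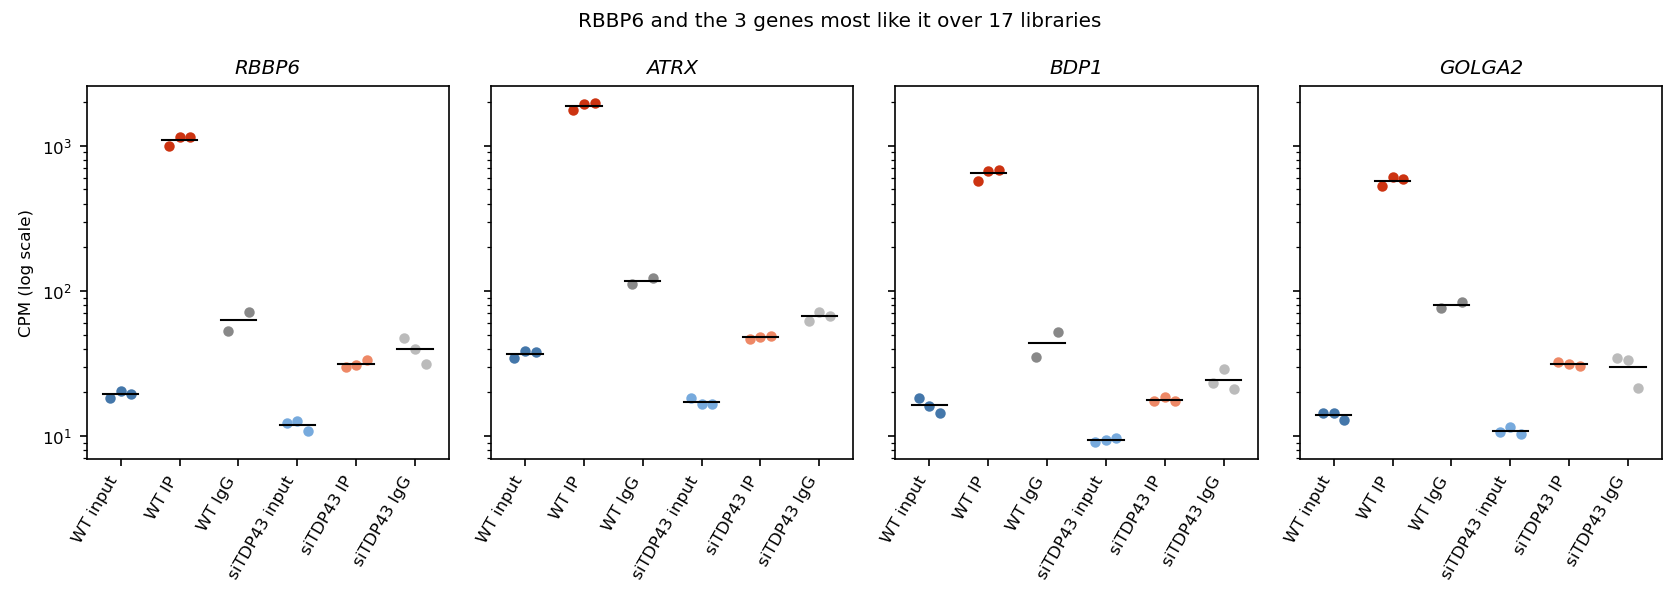
Level in CPM (log scale) of RBBP6 and of ATRX, BDP1 and GOLGA2 in the 17 libraries, 1 point a library with the group mean as a line. All 4 genes are highest in the 3 WT IP libraries, and their siTDP43 IP means are 31.3, 47.7, 17.8 and 31.4 CPM. ATRX, BDP1 and GOLGA2 were chosen for their correlation with RBBP6 over these libraries, so a like shape was given by the choice.

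The wider machinery was described through 3 further lists. Of 14 other genes for cleavage and polyadenylation, 9 rose and 4 fell in the input after knockdown, beside 38.6% and 40.6% of 14036 genes. PPP1R10, also called PNUTS, which targets a phosphatase to the polymerase, rose by 2.17 and CLP1, the partner of PCF11, by 1.53 on the log2 scale. PABPN1, the nuclear poly(A)-binding protein, had a change of -2.56 and SYMPK, the scaffold symplekin, one of -2.07. PABPN1 held only 2 to 9 counts in the siTDP43 input libraries and shares 1469 exon bases with BCL2L2-PABPN1, and PPP1R10 is placed by the table on several alternate copies of its chromosome region, so both values are uncertain. For the change of IP over input 5 of the 14 were higher and 6 lower in siTDP43, beside 31.5% and 36.3% of 15165 genes. PAPOLA, the main poly(A) polymerase, had 2.20 and WDR33, which reads the poly(A) signal beside CPSF4, 1.11, while CSTF2T had -2.11 and PPP1R10 -1.90. For IP over IgG 3 were higher (5 with limma) and 5 lower, beside 34.9% and 25.9% of the genes, with PAPOLG at 5.05 over siTDP43 IgG libraries of 2 to 4 counts, WDR82 at 1.26, PPP1R10 at -2.57 and SSU72 at -1.43. PPP1R10 in WT and WDR82 in siTDP43 were the genes of this list above both input and IgG.

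Among 11 genes that act at the end of transcription or in the U1 snRNP, which guards against early cleavage, 4 rose and 7 fell in the input, beside 38.6% and 40.6% of all genes tested. The U1 proteins SNRNP70 and SNRPA had changes of -2.73 and -1.32, and XRN2, the exonuclease of termination, and RPRD1A rose by 0.93 and 0.74. For IP over input 5 were higher (3 with total count scaling and with limma) and 3 lower in siTDP43, beside 31.5% and 36.3% of all genes, with SNRNP70 at 1.34, SNRPC at 0.88, SCAF4, which binds the polymerase tail, at -1.46 and RPRD1B at -1.15. For IP over IgG 5 were higher and 4 lower, beside 34.9% and 25.9%, with SCAF4 at -2.69, RPRD1B at 2.00 and SCAF8 at 2.75, whose siTDP43 IgG libraries held 6 to 10 counts.

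Of 7 genes for histone mRNA 3′ ends, which are cut without a poly(A) tail, 2 rose and 2 fell in the input, beside 38.6% and 40.6% of all genes tested. ZNF473 and ERI1 rose by 0.61 and 0.31, and SLBP, the stem-loop binding protein, and CASP8AP2, a cofactor of histone mRNA cleavage, had changes of -0.68 and -0.95. For IP over input 3 were higher and 3 lower in siTDP43, beside 31.5% and 36.3% of all genes, and CASP8AP2 (-3.27) and ZNF473 (-2.09) were the lowest and SLBP (1.51) and LSM10 (1.07) the highest. CASP8AP2 went from a mean of 136 CPM in the WT IP to 7.24 CPM in the siTDP43 IP, with 30.1 and 15.5 CPM in the inputs. For IP over IgG 4 were higher and 2 lower, beside 34.9% and 25.9%, with CASP8AP2 at -3.90, SLBP at -1.10 and ERI1 at 6.01 over siTDP43 IgG libraries of 4 to 8 counts. NPAT was called higher as well, and no fold is given since its siTDP43 IgG libraries held 2 counts each.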

How the data were processed

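The authors deposited raw counts for each gene, made from paired reads of SMART-seq2 libraries of poly(A) RNA. Per the submitters' processing notes and the study's methods the tools were Trim Galore 0.6.7, STAR 2.7.10a and featureCounts 2.0.2. The methods give hg19 for human reads. The only build in the notes is mm10, which the methods give to mouse. Strand setting, pair handling and annotation release are not given in the sources used here. Even values made up 81.3 to 95.9% of the counts from 1 to 20 of a library, so mates appear to have been counted singly. No molecular identifiers were used, and the tests cover the spread between libraries and not the number of molecules. The acetylated spike-in was left out, so levels are relative within a library.

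Groups and replicate numbers came from the sample titles. Replicates differed by more than counting noise (chi-square per degree of freedom 3.26 to 9.43). The counts were fitted with edgeR 4.0.16 in R 4.3.3 (quasi-likelihood F test, TMM, filterByExpr with a minimum count of 10), with Benjamini-Hochberg adjustment over all genes tested. Inputs were fitted in 6 libraries, each genotype's pull-downs in 8 or 9, and interactions in 17. A call needed an adjusted p under 0.05, and within a genotype also 2-fold. The SE is the size of the log2 change divided by the root of F. Alternatives were limma 3.58.1 on log2(FPKM + 1), DESeq2 1.42.0 and its size factors inside edgeR, scaling by total count, all genes with a count, genes with a mean of at least 50 counts, 1 fit of all 17 libraries, a block for the replicate number, and each library left out. The fits were tried on simulated counts in which few genes changed. Many genes differ in these data, so that trial does not test the scaling used here.

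The 10 genes, the lists and the tests were chosen with earlier results of these data known. Named besides the 10 genes were TARDBP, NAT10, in each list the 2 highest and 2 lowest called changes in 3 contrasts, and the 3 genes most correlated with RBBP6. A result that this rule gives is not reported here. Exon sequence came from GRCh37 (hg19) at the positions in the table: 164 of 167 gaps between exon blocks of the 10 genes began with GT and ended with AG. Sites were annotated on the canonical transcripts of GENCODE. Residuals of same-numbered libraries correlated from -0.0213 to 0.0269 in 40 pairs, some of them across genotypes. Replicate numbers were therefore not used as pairs in the reported fits. Low correlations cannot show whether same-numbered libraries shared a source.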

Additional observations from a re-analysis of the deposited data

Results flagged for a closer look

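Enrichment differed between siTDP43 and WT by the interaction test of edgeR (adjusted p under 0.05) in 20 cases among the 10 genes, each given as siTDP43 minus WT on the log2 scale. Such calls were common over all 15165 genes: 36.3% were lower and 31.5% higher for IP over input. The shares were 25.9% and 34.9% for IP over IgG, and 37.4% and 27.0% for IgG over input. These contrasts also share libraries. For IP over input the differences were -4.44 in RBBP6, -1.72 in PCF11, -1.34 in CPSF6, -1.33 in CPSF1, -1.14 in FIP1L1, -0.58 in CSTF2 and 0.94 in CPSF4. For IP over IgG they were -4.48 in RBBP6, -1.87 in CPSF6, -1.23 in CPSF1, 0.37 in CPSF3, 0.79 in CSTF3, 1.62 in CPSF2 and 2.05 in CSTF2. For IgG over input they were -2.63 in CSTF2, -1.69 in CPSF2, -1.05 in FIP1L1, -0.78 in CSTF3, 0.53 in CPSF6 and 0.68 in CPSF4. RBBP6, CPSF6 and CPSF1 were called lower both over input and over IgG, and the share of all genes called lower over both was not computed. In CPSF6 the IP mean was 65.3 CPM in WT and 61.7 CPM in siTDP43. Its input mean was 77.1 and 184 CPM, and its IgG mean was 24.9 and 86.1 CPM. CSTF2 was lower over input and higher over IgG, and its IgG libraries held 196 to 236 counts in WT and 12 to 20 in siTDP43.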

How the results depend on the processing

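Depth limits the IgG values: the siTDP43 IgG libraries held 3013989 to 3436811 counts, and PCF11 had 2 to 20 counts in any IgG library. Between TMM and total count scaling the median log2 change of all genes moved from -0.09 to -0.43 for siTDP43 IP over input, from -0.58 to -1.13 for siTDP43 IgG over input and from -0.19 to -0.48 for the change of IP over input, and member values moved with it. A replicate block changed 1 call among the 10 genes, the change of IgG over input in CPSF3 (-0.35 in place of -0.29, edgeR adjusted p 0.0238), and RBBP6 had -4.445 in place of -4.44 for the change of IP over input.

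Counts of called members that moved by over 1.5 times were 5 higher (from 3) for WT IP over IgG with total count scaling. For siTDP43 IP over input, limma gave 1 higher (from 2), and total count scaling, all 17 libraries in the fit and limma each gave 4 lower (from 2). For the change of IgG over input, total count scaling and limma gave 0 higher (from 2), and leaving out 1 library gave 1 to 2. RBBP6 over input in siTDP43 was 0.86 in limma, under 2-fold. Counts over all genes that moved by over 1.5 times with limma were 2508 in place of 4026 lower for WT IP over input, 3318 in place of 5186 higher and 1684 in place of 2629 lower for WT IP over IgG, 3379 in place of 5400 lower for WT IgG over input, 1803 in place of 3414 higher for siTDP43 IP over input, 1052 in place of 1913 lower for siTDP43 IP over IgG, and 1866 in place of 3145 higher for siTDP43 IgG over input.

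Among the 10 genes the directions that turned were those of values not called in the reported edgeR fit, and the cause was not tested. CSTF3 passed the test once turned, for the change of IP over input with total count scaling (edgeR adjusted p 0.0263). With total count scaling and with limma, CPSF3 was 0.0447 and 0.0508 for WT IP over IgG and -0.22 and -0.21 for the change of IP over input. CPSF2 in siTDP43 was -0.21 and -0.20 for IP over input (-0.0279 with all 17 libraries in the fit), 0.0928 and 0.0844 for IP over IgG, and -0.30 and -0.28 for IgG over input. RBBP6 was -0.28 and -0.39 for the change of IgG over input, and CSTF3 -0.29 and -0.28 for the change of IP over input. With DESeq2 and with its size factors in edgeR, CSTF3 was -0.0493 and -0.0502 for that change and CPSF1 0.0683 and 0.0683 for the change of IgG over input. With a mean of at least 50 counts, PCF11 was 0.0075 for siTDP43 IP over input and CPSF4 -0.0205 for siTDP43 IP over IgG.

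Leaving out 1 library gave -0.21 to 0.0590 for CPSF3 and -0.37 to 0.0299 for CPSF4 (WT IP over IgG), -0.22 to 0.0683 for PCF11 (siTDP43 IP over input), -0.14 to 0.23 for CPSF4 (siTDP43 IP over IgG) and -0.0596 to 0.0602 for CSTF3 (change of IP over input). For the change of IP over IgG it gave -0.30 to 0.0753 for FIP1L1 and -1.17 to 0.38 for PCF11, and for the change of IgG over input -0.16 to 0.28 for RBBP6 and -0.20 to 0.0583 for CPSF1.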
